A study of Physcomitrium patens with 21 samples.

Results

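A set of 170 moss genes was described that had higher transcript levels after auxin treatment, lower levels than at the start once the shoot tip was cut off, and levels still below the start after 24 h. They were picked from 32926 gene models by 4 conditions on the read counts. The level of a gene in a library was its read pairs per 1000000 pairs counted there (CPM), and L is log2(group mean CPM + 1). A member had a mean of at least 5 CPM at 0 h after decapitation, an L at least 1 higher in auxin-treated than in mock-treated plants, an L at 12 h at least 1 below that at 0 h, and an L at 24 h at least 0.5 below that at 0 h. The members made up 1.07% of the 15908 genes that met the first condition.

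Auxin is a plant hormone made largely in young growing tissues, shoot tips among them, and carried from there through the plant. In land plants it binds receptors of the TIR1/AFB family, which leads to the destruction of the Aux/IAA repressors and frees the ARF transcription factors to act on their target genes. Auxin from the tip of a shoot holds back branching below it, in mosses as in flowering plants, and decapitation removes that source.

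The RNA came from stems of leafy shoots (gametophores) of Physcomitrium patens, wild type of the Gransden strain in all groups. In the auxin experiment the plants received 10 µM of the auxin indole-3-acetic acid (IAA) or the mock solvent, each for 30 min. In the decapitation series the stems were collected 0, 2, 6, 12 and 24 h after the cut, with RNA of 5 to 10 gametophores from 4-week-old colonies pooled in each replicate. There were 7 groups with 3 libraries each, described in the design as biological replicates. The labels give neither colony age nor pooling for the IAA and mock groups, and the treatment label of the 24 h group also carries the words biotic stress. All groups are labelled stem, which could not be checked against markers because the gene identifiers were not paired with names. The same growth temperature and the same daily cycle of light and dark are given for all groups. Time since the cut and hour of day cannot be told apart, since no uncut stems of later hours were analysed here.

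The libraries held 18995348 to 32039288 counted read pairs, with mapping rates of 94.6% to 96.2%. Several libraries stood apart from their group in the members. At 6 h, replicate 1 was the lowest library in 136 of the 170, with a median log2 difference of -0.73 from the other 6 h libraries. It was the highest in 14 members, against 42.4% of the genes with a 0 h mean of at least 5 CPM, whose median difference was 0.02. At 0 h, replicate 1 was high, and all comparisons with 0 h share it. Of the 170 members, 130 had their highest 0 h value in it, against 32.3% of the genes with a 0 h mean of at least 5 CPM. The median member was 1.48-fold above the mean of the other 0 h libraries there, with a range of 0.751 to 6.03. In 83 members (48.8%) the ratio was at least 1.5, against 1.18% of the genes with a 0 h mean of at least 5 CPM. The 0 h libraries had helped to choose the members, which shaped these 0 h values, so they are descriptions. Without replicate 1 of 0 h, 117 genes met the 4 conditions, and 115 of them were among the 170.

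The choice of members fixed how they differ between IAA and mock, 12 h and 0 h, and 24 h and 0 h, so these values are descriptions without a test. The median member had 5.04 times its mock level in IAA-treated plants. Its 0 h level was 7.71 times its level at 12 h and 1.92 times its level at 24 h. On the L scale the medians were 1.78 for IAA minus mock (range 1.01 to 4.82), -2.50 for 12 h minus 0 h (lowest -5.90) and -0.88 for 24 h minus 0 h (lowest -2.20). The median gene with a 0 h mean of at least 5 CPM had L differences of -0.12, 0.10 and -0.06. In bulk stem RNA, fewer cells of a type and less RNA per cell cannot be told apart.

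The members closest to the limits show where the set ends, each set beside the nearest gene that missed this limit alone. Pp3c5_14790V3.1 entered with an L difference of 1.01 between IAA and mock, and Pp3c17_21150V3.1 stayed out with 0.997. At 12 h the values were -1.01 for Pp3c9_2110V3.1, a member, and -0.99 for Pp3c6_8850V3.1, a non-member. At 24 h they were -0.51 for Pp3c12_16880V3.1 and -0.50 for Pp3c9_7970V3.1, which narrowly missed the limit. The lowest 0 h mean inside was 5.30 CPM in Pp3c13_21340V3.1, and the highest outside was 4.43 CPM in Pp3c6_1770V3.1.

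Over the 5 times, most members went down in steps to 12 h and came part of the way back by 24 h. The mean was highest at 0 h in 154 members, at 2 h in 13 and at 6 h in 3. It was lowest at 12 h in 166 members, at 6 h in 3 and at 24 h in 1. In 140 members each step to 12 h was downward and the last step upward. The median L difference from 0 h was -0.56 after 2 h, -1.15 after 6 h, -2.50 after 12 h and -0.88 after 24 h. The conditions set the values at 12 h and 24 h and left those at 2 h and 6 h free, apart from the shared 0 h libraries.

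**Figure D1:**
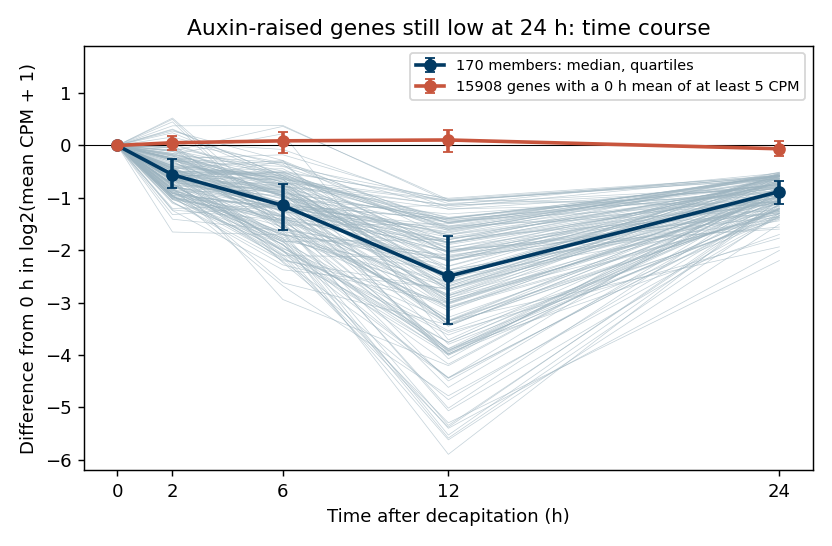
Difference from 0 h in log2(mean CPM + 1) (vertical axis) against hours after decapitation (horizontal axis). Thin lines are the 170 members, dark points their median with quartiles and red points the median and quartiles of the 15908 genes with a 0 h mean of at least 5 CPM. The members' median lies lowest at 12 h (-2.50) and stands at -0.88 at 24 h, while that of the 15908 genes stays between -0.06 and 0.10.

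The step from 2 h to 6 h compared no library that had chosen the members, so it could be tested. Here 69 of the 170 members fell (40.6%), against 13.2% of the 20269 genes tested. None of them rose, whereas 12.8% of all genes did. These calls are Benjamini-Hochberg adjusted p-values below 0.05 over all genes in edgeR's quasi-likelihood F test. All 170 members entered the test, and 101 were not called. The low replicate 1 of 6 h bore on the count: without it, 49 members fell. At an unadjusted p below 0.05, edgeR in the fit of the 15 decapitation libraries had 91 members lower and 0 higher. DESeq2 at an adjusted p below 0.05 had 66 lower and 0 higher. The shares of all genes at these settings are not given here, so these counts cannot be set against them. The median log2 change in edgeR was -0.68 over the members and 0.01 over all genes, and 156 members had a value below 0. In 43 members (25.3%) the called fall was at least 2-fold, against 1.79% of all genes. The 3 libraries of 6 h all lay below the 3 libraries of 2 h in 79 members (46.5%), against 18.0% of all genes.

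**Figure D2:**
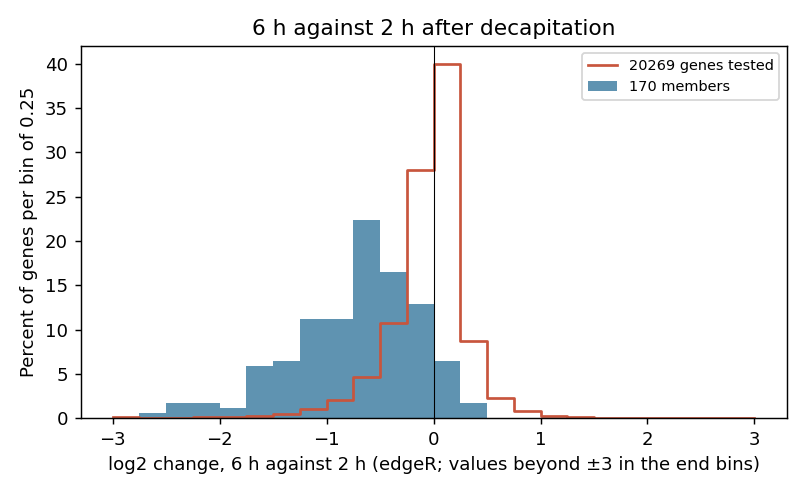
Log2 change at 6 h against 2 h after decapitation from edgeR (horizontal axis, in bins of 0.25) and the percent of genes in each bin (vertical axis). Blue bars are the 170 members and the red line is all 20269 genes tested. The members lie mostly left of 0, with a median of -0.68 against 0.01 for all genes.

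The largest fall at this step was that of Pp3c6_9870V3.1. It had 1.83, 3.75 and 5.31 CPM at 6 h, against 22.1, 15.05 and 30.2 CPM at 2 h. All 6 h libraries were below all 2 h libraries. The log2 change was -2.65 ± 0.290 (SE; adjusted p = 8.07e-06, edgeR with Benjamini-Hochberg). Its 0 h libraries had 43.2, 28.4 and 32.03 CPM, and at 12 h it was at 0.865, 1.01 and 0.913 CPM. At 24 h it held 18.5, 20.4 and 18.4 CPM, or 19.1 CPM ± 1.08 (SD, n = 3).

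Pp3c11_25660V3.1 took a different course. It had 2.04, 2.32 and 1.799 CPM at 6 h, against 12.2, 11.7 and 10.3 CPM at 2 h. Its log2 change was -2.50 ± 0.165 (SE; adjusted p = 4.72e-08, edgeR with Benjamini-Hochberg). At 2 h it stood above its 0 h libraries, which had 8.63, 8.09 and 6.58 CPM, higher by 0.50 ± 0.144 on the log2 scale (SE; adjusted p = 0.0189, edgeR with Benjamini-Hochberg). This rise over 0 h is a description, because the 0 h libraries had helped to choose the members. It was not called in every fit that left out a library of the groups compared. The low level of 6 h was also that of 12 h, with 1.99, 2.03 and 2.31 CPM. At 24 h the gene had 3.90, 5.404 and 3.43 CPM, below all 0 h libraries.

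Genes that missed a named condition were set beside the members at the same step. Of the 89 genes that were auxin-raised and low at 12 h but above the 24 h limit, 66 fell between 2 h and 6 h (74.2%), with a median log2 change in edgeR of -0.63. Of the 250 auxin-raised genes above the 12 h limit, taken whatever their 24 h level, 76 fell (30.4%), with a median of -0.21. Of the 195 genes low at 12 h and 24 h but below the auxin limit, 62 fell (31.8%), with a median of -0.32. The share of calls was thus lower in the members than in the 89 genes above the 24 h limit, although the medians were close. At 12 h minus 0 h the median L difference was -2.50 in the members and -1.48 in the 89 genes. From 12 h to 24 h the median rise in L was 1.69 in the members and 1.38 in the 89 genes. Differences between these sets were not tested. The spread between replicates also differed between the sets, and its relation to the shares was not tested. The median biological coefficient of variation in edgeR was 0.237 in the members, 0.117 in the 89 genes, 0.0876 in the 250 and 0.145 in the 195. The 0, 12 and 24 h libraries, which had helped to choose the sets, entered this coefficient.

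Members with a larger 12 h difference had lower values at the step from 2 h to 6 h. The 46 members whose 0 h level was at least 16 times that of 12 h had, at 6 h against 2 h, a median edgeR log2 change of -1.02, and 18 of them fell. The 79 members with a ratio of 4 to 16 had a median of -0.68, and 32 fell. The 45 members with a ratio under 4 had a median of -0.48, and 19 fell. The shares that fell did not follow the medians, at 39.1%, 40.5% and 42.2% in this order, against 13.2% of all genes tested. Across the 170 members, the L difference of 12 h minus 0 h and the 6 h against 2 h log2 change had a Pearson r of 0.39 and a Spearman rho of 0.45. The IAA minus mock difference and the same change had an r of -0.14 and a rho of -0.17. Taken as the L difference of 6 h minus 2 h, the relation with IAA minus mock had an r of -0.16 and a rho of -0.18 over the members, which all lie above the auxin limit, and an r and rho of -0.41 over the 15908 genes with a 0 h mean of at least 5 CPM. These are correlations across genes of shared libraries, and genes are not independent replicates.

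At 2 h against 0 h, 68 members were called lower (40.0%) and 2 higher in edgeR, against 13.8% and 12.3% of all genes tested. Of the comparison sets described above, 55.1% of the 89 genes, 34.8% of the 250 and 43.6% of the 195 were called lower. The members' median log2 change was -0.65. In 71 members the 2 h libraries all lay below the 0 h libraries, against 15.8% of all genes. These counts are given as a description, because the 0 h libraries had helped to choose the members and are shared by all comparisons with 0 h. Without replicate 1 of 2 h, 43 members were called lower, and without replicate 1 of 0 h, 48.

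The lowest member at 2 h relative to 0 h was Pp3c1_14380V3.1. It had 12.4, 12.02 and 17.0 CPM at 2 h, against 67.4, 33.4 and 35.7 CPM at 0 h. The log2 change was -1.78 ± 0.309 (SE; adjusted p = 0.00054, edgeR with Benjamini-Hochberg). Genes were named here only where the 2 h and 0 h libraries did not overlap, and the 0 h libraries had helped to choose the members. The p-values in this paragraph are therefore descriptions. At 6 h it was at 7.82, 14.9 and 17.0 CPM, which overlapped with 2 h. Pp3c12_26160V3.1 was next on the L scale among the members without overlap, with 3.49, 1.97 and 4.84 CPM at 2 h, against 15.3, 8.14 and 6.76 CPM at 0 h. Its log2 change was -1.61 ± 0.536 (SE; adjusted p = 0.0380, edgeR with Benjamini-Hochberg). At 12 h this gene had 3, 0 and 0 read pairs, against 323, 170 and 144 pairs at 0 h.

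The members called higher at 2 h against 0 h were Pp3c11_25660V3.1, described above, and Pp3c26_13490V3.1, which was named after its values were seen. Pp3c26_13490V3.1 had 51.1, 48.2 and 47.3 CPM at 2 h, against 40.7, 36.9 and 34.8 CPM at 0 h. The log2 change was 0.33 ± 0.102 (SE; adjusted p = 0.0276, edgeR with Benjamini-Hochberg). At 6 h it was still higher than at 0 h, with 49.0, 44.4 and 53.9 CPM and a log2 change of 0.31 ± 0.101 (SE; adjusted p = 0.0190, edgeR with Benjamini-Hochberg). Its low values came after that, with 18.1, 17.5 and 16.4 CPM at 12 h and 19.8, 28.2 and 25.2 CPM at 24 h. Neither of these rises was called in every fit that left out 1 library of the groups compared. The 0 h libraries had helped to choose the members, so the p-values in this paragraph are descriptions.

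At 6 h against 0 h, 144 members were called lower (84.7%) and 1 higher, Pp3c26_13490V3.1, in edgeR, against 23.6% and 24% of all genes tested. In the same comparison sets, 88.8% of the 89 genes, 60.0% of the 250 and 72.3% of the 195 were called lower. The members' median log2 change was -1.28, and 109 members were called at least 2-fold lower, against 3.48% of all genes. Again the 0 h libraries were those used to choose the members. Pp3c6_9870V3.1 had the lowest L relative to 0 h, and its edgeR log2 value was -3.33 ± 0.286 (SE; adjusted p = 1.87e-07, edgeR with Benjamini-Hochberg). Pp3c26_14540V3.1 had 5.86, 9.21 and 13.7 CPM at 6 h, against 83.8, 54.2 and 62.7 CPM at 0 h. Its log2 change was -2.88 ± 0.257 (SE; adjusted p = 2.79e-07, edgeR with Benjamini-Hochberg). It had already been at 36.2, 28.3 and 38.0 CPM at 2 h.

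At 12 h the 3 libraries lay below those of 0 h in all 170 members, against 20.3% of all genes tested, a count that the choice of members shaped. The level at 0 h was at least 4 times that of 12 h in 125 members, at least 8 times in 83, at least 16 times in 46 and at least 32 times in 23. Pp3c23_14420V3.1 had the lowest L difference, -5.90. It had 1.34, 0.862 and 1.30 CPM at 12 h, against 216, 89.9 and 78.7 CPM at 0 h. Pp3c14_6470V3.1 came next with -5.62, and it had 15.5, 8.93 and 6.44 CPM at 12 h, against 851, 439 and 371 CPM at 0 h. Both were already low in replicate 1 of 6 h, at 7.44 and 35.8 CPM, while the other 6 h libraries had 49.2 and 50.5 CPM of Pp3c23_14420V3.1 and 205 and 176 CPM of Pp3c14_6470V3.1.

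At 24 h the mean CPM of 169 members lay between their 12 h and 0 h levels. The exception lay below 12 h on the CPM scale, whereas on the TMM scale of edgeR, which rescales the libraries, all 170 were above 12 h, by a log2 difference of at least 0.09. The 24 h libraries lay below the 0 h libraries in 127 members, against 29.5% of all genes tested, and above the 12 h libraries in 161, against 14.6% of all genes tested. The choice of members shaped both counts. Measured on the L scale, the median member had regained 63.5% of its 12 h difference from 0 h, with quartiles of 50.5% and 73.2%. The 24 h mean was above that of 6 h in 118 members and below it in 52, and it was below that of 2 h in 147. Members far down at 12 h had regained more: the median was 73.8% in the 46 with a ratio of at least 16, 63.8% in the 79 with 4 to 16 and 46.5% in the 45 with less than 4. The conditions set an upper bound on the regained share that is wider for a larger 12 h difference, so these shares are a description.

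Pp3c10_22850V3.1 was lowest at 24 h relative to 0 h, with an L difference of -2.20. It had 50.1, 35.6 and 104 CPM at 24 h, against 477, 215 and 187 CPM at 0 h, a 4.64-fold difference of means. Pp3c20_8210V3.1 followed with a 4.14-fold difference. It had 16.6, 12.8 and 40.0 CPM at 24 h, against 149.8, 74.7 and 62.9 CPM at 0 h. In both genes replicate 3 of 24 h was the highest of its group and replicate 1 of 0 h the highest of its own.

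The upward step between 12 h and 24 h was largest in Pp3c23_14420V3.1, by 4.87 on the L scale, with 36.7, 36.6 and 114 CPM at 24 h, against 1.34, 0.862 and 1.30 CPM at 12 h. Pp3c8_16760V3.1 was next, by 4.39, with 71.2, 82.7 and 172 CPM at 24 h, against 4.63, 3.09 and 4.95 CPM at 12 h. At the other end, Pp3c24_10770V3.1 had the smallest L difference, -0.12, the single negative one. It had 6.26, 7.03 and 13.1 CPM at 24 h, against 10.1, 10.1 and 8.89 CPM at 12 h, and the groups overlapped. Pp3c1_9560V3.1 moved by 0.14 on the L scale, with 13.3, 20.1 and 16.8 CPM at 24 h, against 15.5, 14.9 and 14.9 CPM at 12 h. Its 12 h libraries lay close together, at a mean of 15.1 CPM ± 0.342 (SD, n = 3).

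**Figure D3:**
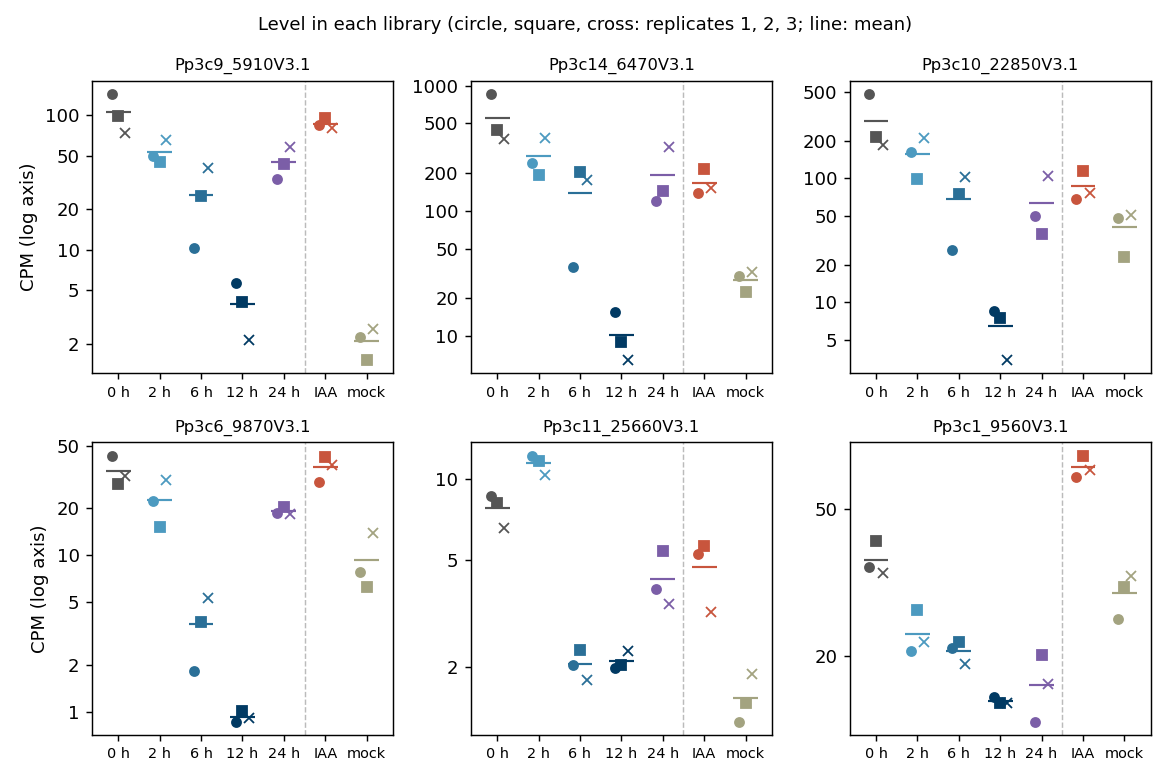
CPM on a log axis (vertical) in each of the 21 libraries (horizontal, by group) for 6 members, with replicates 1, 2 and 3 as circle, square and cross and the group mean as a line. In the upper row replicate 1 is the highest 0 h library and the lowest 6 h library. In the lower row Pp3c11_25660V3.1 is higher at 2 h than at 0 h, and Pp3c1_9560V3.1 stays near its 12 h level at 24 h.

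In the auxin experiment, the IAA level was at least 4 times the mock level in 99 members, at least 8 times in 49, at least 16 times in 20 and at least 32 times in 4. The 3 IAA libraries lay above the 3 mock libraries in 168 members, against 19.7% of all genes tested there, again a count that the choice of members shaped. Pp3c9_5910V3.1 had the largest L difference. It had 84.4, 96.0 and 80.1 CPM in IAA, against 2.23, 1.51 and 2.57 CPM in mock, a 41.3-fold difference of means. In decapitated stems the same gene had 5.62, 4.06 and 2.11 CPM at 12 h, against 143, 99.1 and 73.5 CPM at 0 h. Pp3c7_13140V3.1 had 62.9, 98.8 and 57.0 CPM in IAA, against 1.66, 1.18 and 2.89 CPM in mock, a 38.1-fold difference. Its level in stems was 20.3, 12.7 and 13.4 CPM at 12 h, against 298, 194 and 191 CPM at 0 h.

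The levels of the auxin experiment were also set beside those of the decapitation series. In IAA the median member was at 0.609 of its 0 h level, and the IAA mean was above the 0 h mean in 37 members and below it in 133. In mock the median was 0.111 of the 0 h level, and the mock mean was below the 0 h mean in 167 of the 170 members. The mock mean was below the 12 h mean in 105 members and above it in 65. Over the 15908 genes with a 0 h mean of at least 5 CPM, the median L difference was -0.10 for IAA minus 0 h and 0.00 for mock minus 0 h. All of these groups had been used to choose the members, so no test was made. No library of 0 h or 12 h was treated with the solvent, and treatment and experiment cannot be told apart in this gap.

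Within a group, the members tended to be high or low in the same libraries. The members' summed level was 17161, 11531 and 11316 CPM at 0 h, 9293, 8431 and 11198 CPM at 2 h, and 4057, 6291 and 7237 CPM at 6 h. It was 2220, 1993 and 1702 CPM at 12 h and 5344, 6382 and 8270 CPM at 24 h. The IAA libraries had 8248, 9841 and 8309 CPM, against 2508, 2100 and 2557 CPM in mock. No condition used the 2 h and 6 h libraries. At 2 h, replicate 3 held the highest value of 112 members, against 32.8% of the genes with a 0 h mean of at least 5 CPM. At 6 h, replicate 3 held the highest value of 113 members, against 28.1% of those genes, while replicate 1 was the low library named above. At 24 h, replicate 3 was highest in 116 members, against 28.2% of those genes. Replicate 1 of 24 h was highest in 3 members, against 38.8% of those genes, and lowest in 127. The 24 h libraries had helped to choose the members, which shaped these 24 h counts.

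**Figure D4:**
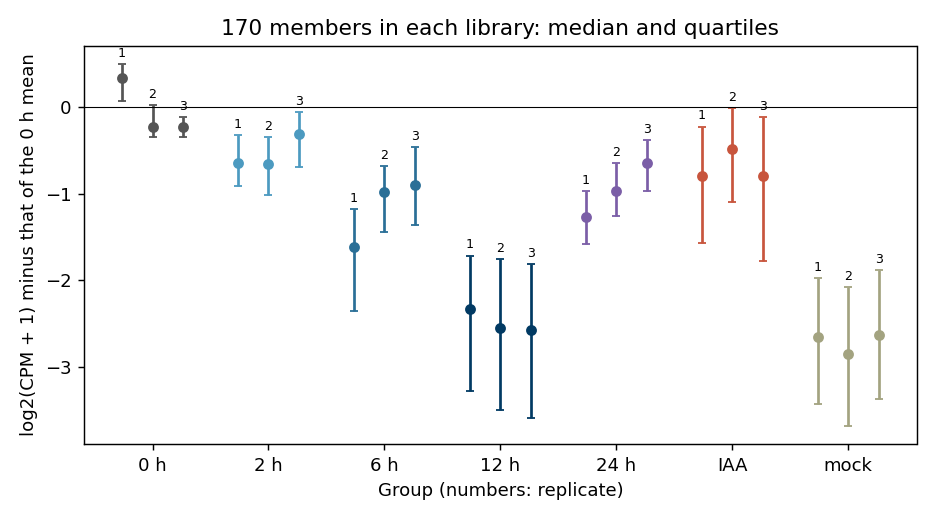
Median and quartiles over the 170 members of log2(CPM + 1) in each library minus that of the 0 h mean (vertical axis), by group and replicate (horizontal axis). Replicate 1 stands above the other 0 h libraries and below the other 6 h libraries, and the mock libraries lie near the 12 h libraries.

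The spread between replicates was wider in the members than in most genes. The median SD of log2(CPM + 1) over the 3 libraries was 0.35 in the 0 h group and 0.32, 0.46, 0.21 and 0.36 in the groups of 2, 6, 12 and 24 h. It was 0.25 in IAA and 0.21 in mock. Over the genes with a 0 h mean of at least 5 CPM the medians ran from 0.067 at 2 h to 0.099 in mock. At 2 h 165 members and at 6 h 158 members were above the median of those genes. The choice of members used the libraries of all groups but these, which can shape the other spreads and the coefficient given next. The median biological coefficient of variation in the decapitation series was 0.237 for members and 0.0646 for all genes tested in edgeR.

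**Figure D5:**
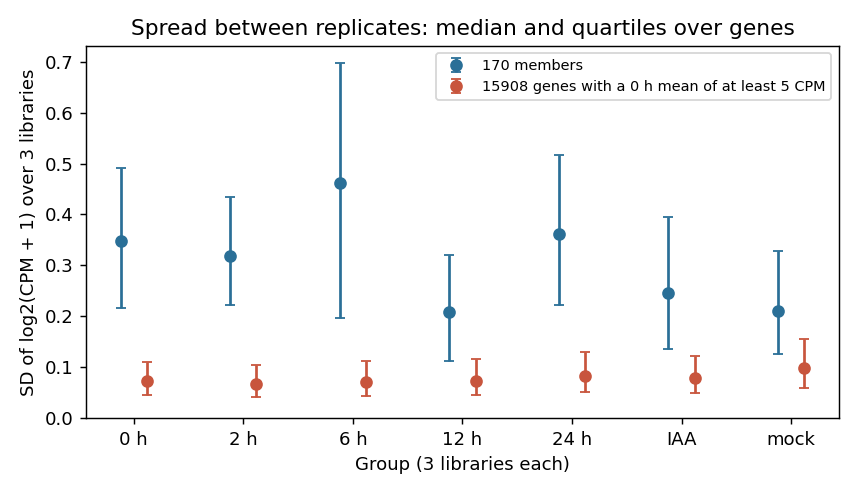
SD of log2(CPM + 1) over the 3 libraries of a group (vertical axis) for the 7 groups (horizontal axis), as median and quartiles over the 170 members (blue) and over the 15908 genes with a 0 h mean of at least 5 CPM (red). The members' medians lie between 0.21 and 0.46, those of the other set between 0.067 and 0.099.

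The spread was extreme in a few members. Pp3c16_12890V3.1 had 11.6, 6.98 and 53.6 CPM at 24 h, against 120.0, 28.3 and 11.4 CPM at 0 h, where the highest library was 10.5 times the lowest. The groups overlapped, with replicate 3 of 24 h above 2 of the 3 libraries of 0 h. Pp3c4_18020V3.1 had 7.63, 6.03 and 43.3 CPM at 24 h, against 65.0, 27.4 and 14.4 CPM at 0 h, where the ratio was 4.51. In IAA the same gene had 0.142, 4.16 and 0.282 CPM, against 0.203, 0.0815 and 0.442 CPM in mock. The groups overlapped, and replicate 2 carried the IAA mean above that of mock. At 6 h against 2 h neither gene was called, with log2 changes of -0.75 ± 0.791 and -0.92 ± 0.774 (SE; adjusted p = 0.531 and 0.417, edgeR with Benjamini-Hochberg).

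The members covered a wide range of levels. Their median 0 h mean was 37.0 CPM, against 31.0 CPM for all genes with at least 5 CPM, and their median model length was 1922 bases, against 2360 bases. Per kilobase of model length, Pp3c19_5170V3.1 was highest at 0 h, with a mean of 623 CPM per kilobase. It had 1185, 819 and 963 CPM at 0 h, 635, 557 and 703 CPM at 2 h and 270, 418 and 490.5 CPM at 6 h. At 12 h it had 126, 97.3 and 67.3 CPM, and at 24 h 343, 415 and 505 CPM. The change at 6 h against 2 h was -0.70 ± 0.229 on the log2 scale (SE; adjusted p = 0.0335, edgeR with Benjamini-Hochberg). Pp3c4_16930V3.1, with a mean of 489 CPM per kilobase at 0 h, had 701, 614 and 920 CPM at 2 h, which overlapped with 956, 586 and 647 CPM at 0 h. It had 304, 570 and 564 CPM at 6 h and 148, 119 and 57.6 CPM at 12 h, and in IAA 312, 359 and 299 CPM, against 49.1, 40.1 and 54.6 CPM in mock.

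The identifiers of the members were spread over all 27 numbers that follow Pp3c in the identifiers of the set, with 2 to 11 members each. The share of the genes with at least 5 CPM at 0 h that were members ran from 0.360% (Pp3c17) to 1.94% (Pp3c19), against 1.07% over all. In 6 pairs, made of 12 genes, the identifiers of both members lay within 5 steps of each other in the order of the tables, and in 2 of these pairs they were direct neighbours. One was Pp3c14_20840V3.1 with Pp3c14_20850V3.1, with L differences of -3.42 and -2.95 at 12 h and -1.23 and -1.34 at 24 h against 0 h. The other was Pp3c22_3200V3.1 with Pp3c22_3210V3.1, with -2.20 and -3.35 at 12 h and -1.17 and -1.94 at 24 h.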

How the data were processed

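Each library was deposited as a table of whole-number counts of read pairs per gene model, with no normalization. Per the file headers, reads were parsed as pairs, singletons were treated like unmapped reads and reads aligning equally well to several models were removed, so genes with near-identical copies are undercounted. The submitters' processing notes name Bowtie2; its version, the genome build and the annotation are not given in the sources used here. Per the labels, the libraries were stranded, paired-end and polyA-selected from 4 µg of RNA.

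The members, comparison sets and lists were chosen with earlier results of these data known. CPM used the library total. Counts were tested in R 4.3.3 with edgeR 4.0.16 (filterByExpr, TMM, glmQLFit and glmQLFTest), in 1 fit of the 15 decapitation libraries (20269 genes) and another of the 6 auxin libraries (19989 genes, 169 of them members) and group as the only term. A call was a Benjamini-Hochberg adjusted p below 0.05. The SE printed with an edgeR log2 change was derived from the test, as the size of the change divided by the square root of its F statistic. All p-values come from the deposited counts, and the scripts had first been checked on simulated ones. The simulated counts had the same spread in all genes and changes only in well-covered genes. They do not show how the test performs for the members, whose spread was wider. TMM moves the centre of all genes: between 12 h and 24 h the median gene with at least 5 CPM at 0 h differed by -0.16 in L and by 0.01 on the TMM scale of edgeR. Alternatives were RLE size factors, other filters, DESeq2 1.42.0, single reads, the 6 compared libraries alone, a replicate block and leaving out each library, and, chosen after seeing the data, leaving out replicate 1 of 0 h at the 6 h against 2 h step and in the choice of members. Figures were drawn with Python 3.11.15 and matplotlib 3.10.9.

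Named genes were at most 2 per direction and comparison: the largest differences between IAA and mock, between each time and 0 h without overlap of libraries, among called members at 6 h against 2 h, and between 24 h and 12 h at both ends, with the highest 0 h levels per kilobase, the largest ratios between 0 h libraries and the genes next to each limit. In the RefSeq table of assembly ASM5946719v1 (27567 genes), 0 of the 32926 identifiers were found, so the lists of auxin, cytokinin, cell wall and other genes were not filled and no sequences were used.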

Additional observations from a re-analysis of the deposited data

How the results depend on the processing

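The fall of members between 2 h and 6 h was called in 49 to 73 of the 170 when 1 library was left out, against 69, the lowest without replicate 1 of 6 h, the highest with replicate 1 of 0 h left out. The other alternatives gave 66 to 72 of 170, and 57 of the 117 members chosen and tested without replicate 1 of 0 h. Members called higher at this step numbered 0 to 1 when 1 library was left out, the 1 being Pp3c4_24420V3.1 without replicate 2 of 2 h, and 0 in the rest. The log2 change lay between -3.05 and -2.32 for Pp3c6_9870V3.1 and between -2.59 and -2.41 for Pp3c11_25660V3.1, called in all 14 alternatives.

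At 2 h against 0 h, 43 to 64 members were lower when 1 library was left out, against 68, and 87 with the 6 compared libraries alone. Members called higher numbered 0 to 2 when 1 library was left out and 4 with the 6 libraries alone, the cause of which was not tested. Without replicate 2 of 0 h the call of Pp3c26_13490V3.1 was lost, and both calls were lost without replicate 3 of 0 h, replicate 1 of 2 h or replicate 2 of 2 h. At 6 h against 0 h, 116 to 150 members were lower when 1 library was left out, against 144, and 96 of the 117. The single rise there, of Pp3c26_13490V3.1, numbered 0 to 1, being lost without replicate 2 or 3 of 0 h or replicate 3 of 6 h. With the replicate number as a block, 72 members were lower and 0 higher at 6 h against 2 h, 70 and 2 at 2 h against 0 h, and 147 and 1 at 6 h against 0 h. Same-numbered deviations from the group means correlated between -0.173 and 0.176, and not every library correlated best with its own number. Deviations from means of 3 libraries cannot settle whether samples of the same number were collected together.

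The conditions chose 117 to 193 genes when 1 library was left out, 194 with a pseudocount of 0.5 CPM, 139 with medians and 188 with TMM-scaled CPM. Of these, 115, 170, 170, 130 and 162 were among the 170. Some members had 0 pairs in 2 libraries of 12 h and 2 of mock, and in none of the others, so depth limits the size of the differences there.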
